A study of Mus musculus with 50 samples.

Results

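RNA of the nuclei of mouse motor neurons made from embryonic stem cells was compared between the start of culture (DIV0, days in vitro) and 7 days later (DIV7). The members were the libraries that the labels place at DIV0 (2 libraries) and DIV7 (2 libraries), 4 of the 28 RNA libraries of the series. All came from 1 stem cell line in which Cre, driven from *Chat*, switches on the nuclear membrane tag SUN1-GFP, and nuclei were pulled down by that tag. DIV0 nuclei came from embryoid bodies after directed differentiation and before plating, with no glia. DIV7 nuclei came from dissociated neurons plated on astrocyte-enriched cortical glia of newborn mice, with GDNF, BDNF, CNTF and IGF in the medium and an agent against dividing cells. Plating, glia, trophic factors, the agent against dividing cells and time therefore all changed together from DIV0 to DIV7 and cannot be told apart. A library titled as the third DIV0 replicate is DIV28 replicate 3 in the study's sample list, so it was left out of both groups. Nothing in the labels ties the 2 libraries of a day to separate cultures beyond their replicate number, and p-values measure only the spread between such libraries. That spread was estimated over 9 culture libraries, which include DIV28 libraries without and 3 with tetrodotoxin, a sodium channel blocker. Tissue libraries set beside the cultures, from E13.5 to P56, held nuclei pulled down by the same *Chat*-driven tag from spinal cords of mice.

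Newly born motor neurons express LIM homeodomain and Hox transcription factors that fix their class and their position along the spinal cord. They then grow axons, depend on trophic factors from glia and muscle, and assemble the channels, receptors and synaptic proteins that a mature neuron fires with. GDNF and its relatives act through the RET kinase with a GFRA co-receptor, BDNF acts through NTRK2, and CNTF acts through LIFR and IL6ST, which pass the signal to JAK kinases and the transcription factor STAT3. Glia in the same dish express their own genes, and RNA released when cells are broken open can stick to purified nuclei.

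The DIV0 libraries held 4117435 and 3496817 counts and the DIV7 libraries 2704682 and 3929008. The noncoding RNA *Malat1* took 10.4% and 9.24% of the counts at DIV0, and the noncoding *Gm26917* took 8.11% and 5.44% at DIV7. Motor neuron genes were present on both days. *Slc5a7*, the choline transporter, had 341 and 268 normalised counts (counts divided by a size factor per library) at DIV0 and 414 and 284 at DIV7, and the presynaptic *Snap25* had 1359 and 1164, then 990 and 868. Neither passed the test (edgeR adjusted p = 0.641 and 0.289).

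The 2 DIV7 libraries differed from each other in genes of other cells, and every result on those genes is given per library. Summed over 16 genes of fibroblasts and extracellular matrix, DIV0 held 48.3 and 28.0 CPM (counts scaled to the library total), DIV7 replicate 1 held 1455 and replicate 2 held 665. The 20 astrocyte genes summed to 204 and 215 CPM at DIV0, 273 in DIV7 replicate 1 and 530 in replicate 2. Replicate 1 was thus the higher library for matrix genes and replicate 2 for astrocyte genes. The microglial list stayed at or under 18.5 CPM in all 4 libraries, with its defining *Cx3cr1*, *P2ry12* and *Trem2* at 0.

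Between DIV0 and DIV7, 1073 of 12992 tested genes were higher (8.26%) and 368 were lower (2.83%). The limits were 2-fold and p under 0.001 before adjustment in edgeR's quasi-likelihood test. After Benjamini-Hochberg adjustment the largest p among them was 0.00900. With an adjusted p under 0.05 and 2-fold, 1825 were higher and 971 lower. Leaving out 1 of the 4 libraries lowered the counts to between 563 and 778 higher and between 119 and 149 lower, namely 571 and 141 without DIV0 replicate 1, 563 and 149 without DIV0 replicate 2, 778 and 119 without DIV7 replicate 1, and 713 and 136 without DIV7 replicate 2. The median log2 fold change of all tested genes was 0.03. No count was found in either DIV0 library for 114 of the higher genes, so their change is given as a bound against 3 counts over the group, which covers counting error only.

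**Figure D1:**
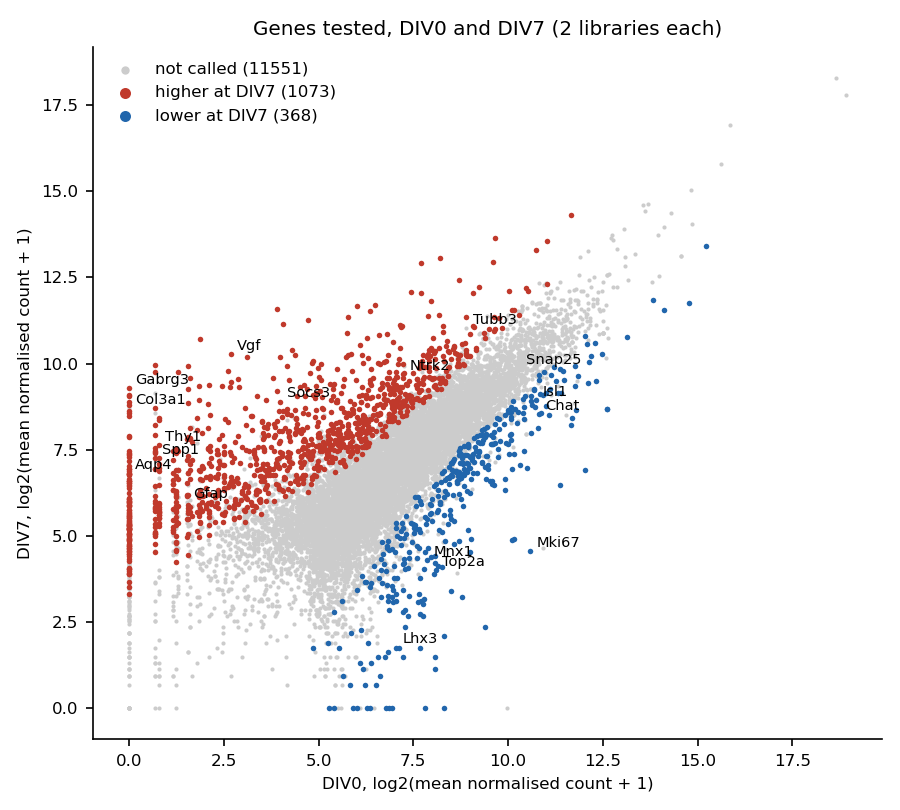
Mean normalised counts of 12992 tested genes at DIV0 (horizontal axis) and DIV7 (vertical axis), as log2 of the mean plus 1, with called genes in red (1073 higher) and blue (368 lower) and some named genes labelled. Genes on the left edge had no count at DIV0, such as *Gabrg3*, and genes on the lower edge had no count at DIV7.

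The 10 genes with the highest fitted log2 fold change, at a mean of at least 100 normalised counts at DIV7, all had no count at DIV0, where the fitted value is no bound and does not rank them. *Gabrg3*, a subunit of the GABA-A receptor (ENSMUSG00000055026.13, chromosome 7 of mm10 from 56716465 to 57387188), had 0 and 0 normalised counts at DIV0 and 714 and 530 at DIV7, at least 312-fold higher (edgeR adjusted p = 2.21e-05). *Glra3*, a glycine receptor subunit, reached 490 and 592, at least 271-fold higher (edgeR adjusted p = 2.75e-05). Both are receptor subunits for inhibitory transmitters, and both DIV7 libraries were high for each. *Cp*, the copper oxidase ceruloplasmin, went from 0 and 0 to 497 and 555, *Gprin3* to 342 and 410, and *Serpina3n*, a secreted protease inhibitor, to 287 and 430. *Egfr*, the receptor of epidermal growth factor, reached 532 and 354, at least 222-fold higher. The collagen gene *Col8a1* and the membrane gene *Tm4sf1* were at least 118-fold and 116-fold higher. The remaining 2 of the 10 highest differed strongly between the DIV7 libraries. *Aldh1a1*, an enzyme of retinoic acid synthesis, had 113 and 837, and *Pnoc*, which encodes the peptide nociceptin, had 217 and 572.

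The 10 genes with the lowest log2 fold change, at a mean of at least 100 normalised counts at DIV0, are described next. *Irx1*, an Iroquois homeodomain factor, fell from 351 and 278 normalised counts to 0 and 0, at least 149-fold lower (edgeR adjusted p = 3.68e-04), and *Irx2* fell from 124 and 118 to 0 and 0, at least 57.0-fold lower. *Th*, the rate-limiting enzyme of catecholamine synthesis, went from 258 and 186 to 0 and 0, at least 105-fold lower. *Slc18a2*, the vesicular monoamine transporter, went from 375 and 159 to 3.52 and 0, a ratio of 195 (95% counting interval 53.5 to 1612). The peptide gene *Sst* went from 313 and 226 to 0 and 2.35, a ratio of 193 (95% counting interval 53.1 to 1600). Both DIV7 libraries lay below both DIV0 libraries for these genes, as they did for 36.7% of all tested genes. Others were *Rxrg*, a retinoid receptor (at least 54.2-fold), *G630064G18Rik* (at least 50.8-fold), *Islr2* (593 and 742 to 0 and 8.24), *Slc16a3*, a lactate transporter (311 and 317 to 5.29 and 1.18), and *Mecom* (227 and 179 to 3.52 and 1.18).

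**Figure D2:**
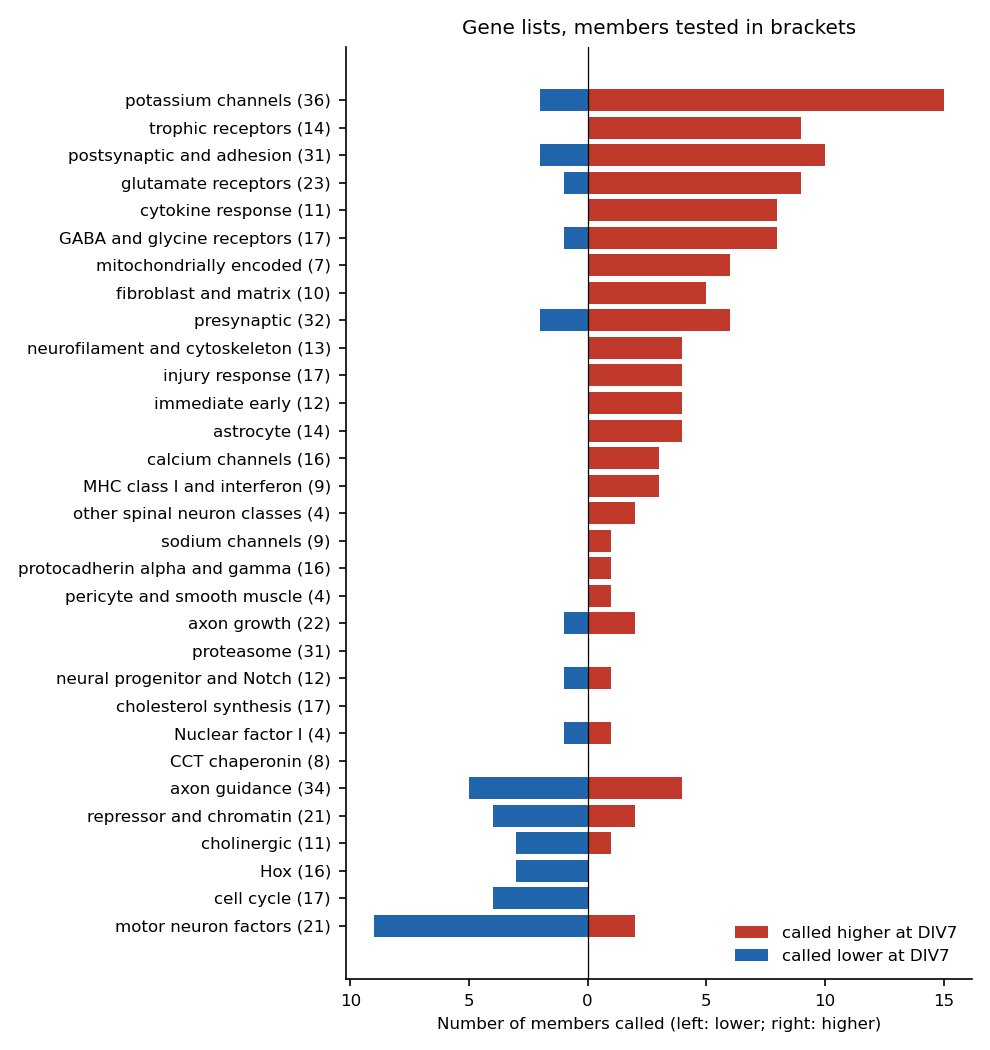
Number of members of each gene list called higher (right, red) or lower (left, blue) at DIV7, for lists with at least 4 tested members, whose number stands in brackets. Potassium channels led the higher side (15 of 36) and motor neuron factors the lower side (9 of 21).

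Trophic factor receptors were among the genes that rose. Of 14 tested trophic receptors, 9 were higher and 0 lower (5 to 7 higher with any 1 library left out), with a median log2 fold change of 1.88 beside 0.03 for all genes. *Gfra1*, the GDNF co-receptor, had 136 and 148 normalised counts at DIV0 and 1937 and 2543 at DIV7, a log2 fold change of 4.01 (SE 0.33, edgeR adjusted p = 1.62e-05). *Gfra2*, the co-receptor of neurturin, went from 1.24 and 4.30 to 208 and 297 (log2 fold change 6.53, SE 0.71). Their signalling partner *Ret* went from 450 and 345 to 1001 and 1496, a smaller log2 fold change of 1.68. The BDNF receptor *Ntrk2* went from 151 and 148 to 656 and 1000 (edgeR adjusted p = 2.61e-04), and *Ntrk3*, the receptor of neurotrophin 3, from 278 and 258 to 1128 and 1098. *Lifr*, the shared receptor of LIF and CNTF, went from 191 and 153 to 3972 and 4628, a log2 fold change of 4.67 (SE 0.32, edgeR adjusted p = 6.07e-06), and its partner *Il6st* from 224 and 209 to 678 and 834. The part of the receptor that binds CNTF itself, *Cntfr*, had 252 and 268, then 143 and 157 (edgeR adjusted p = 0.150). *Igf1r* had 682 and 728, then 626 and 703, with a log2 fold change of -0.06, so the receptors did not all move. The 2 DIV7 libraries were close for this list, with a median ratio of replicate 2 over replicate 1 of 1.17. An open promoter, a peak within 500 bp of a start site, was looked up in ATAC-seq libraries of nuclei sorted by FACS. It was found in both DIV7 libraries for 13 of the 14 genes, beside 81.4% of all tested genes. All 14 already had one in both DIV0 libraries.

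Genes of signalling by such cytokines, listed here as cytokine response, also rose. The added factors, the agent against dividing cells, glia, plating and time cannot be told apart as its source. Which cells the RNA came from was not tested. Of 11 tested cytokine response genes, 8 were higher and 0 lower (6 or 7 higher with any 1 library left out), with a median log2 fold change of 2.79. *Socs3*, the feedback inhibitor of JAK and STAT3 (ENSMUSG00000053113.3, chromosome 11 of mm10 from 117966079 to 117970047), had 11.2 and 18.6 normalised counts at DIV0 and 509 and 439 at DIV7, a log2 fold change of 5.02 (SE 0.34, edgeR adjusted p = 6.07e-06). *Socs2* went from 91.8 and 112 to 627 and 640, *Stat3* from 181 and 176 to 744 and 932, and the kinase *Jak1* from 298 and 201 to 3207 and 3988, a log2 fold change of 3.88. *Vgf*, a secreted peptide precursor induced by trophic factors, went from 3.72 and 7.17 to 980 and 1502, a log2 fold change of 7.86 (SE 0.63, edgeR adjusted p = 1.53e-05). For each of these genes both DIV7 libraries lay above both DIV0 libraries, as they did for 36.5% of all tested genes. *Il6ra* (0 and 1.43 to 47.6 and 54.1) and *Jak2* (300 and 255 to 717 and 512) were the other genes called that were close between the DIV7 libraries. *Osmr*, the oncostatin M receptor, was not close, with 0 and 0 at DIV0 and 277 and 69.4 at DIV7. Its promoter had a peak in DIV7 replicate 2 only among the 4 ATAC-seq libraries, while *Socs3*, *Socs2*, *Stat3*, *Jak1* and *Vgf* had one in both at DIV7. The 250 bases before the *Socs3* start site (RefSeq, GRCm38, minus strand, written 5′ to 3′) are shown because this inhibitor is a classic STAT3 target and its promoter overlapped a peak in all 4 ATAC-seq libraries. The capitals mark the match to the STAT motif TTCNNNGAA, which reads the same on both strands.
Socs3 chr11:117969367-117969616: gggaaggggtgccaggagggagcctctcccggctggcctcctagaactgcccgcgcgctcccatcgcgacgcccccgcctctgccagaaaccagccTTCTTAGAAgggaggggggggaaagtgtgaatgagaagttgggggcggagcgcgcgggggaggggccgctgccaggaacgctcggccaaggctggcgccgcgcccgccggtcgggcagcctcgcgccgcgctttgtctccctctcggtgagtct
This window lies inside the gene span given above, because that span follows GENCODE and the start site used here follows RefSeq. The *Socs3* promoter held 1 such match. Among 9 genes of the list with a promoter in the reference it was the one gene with a match (11.1%), beside 2197 of 27025 genes in all (8.13%), so the list as a whole was near the background.

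Potassium channels, which shape firing, formed the list with the most called genes by number. Some shorter lists had larger shares higher, such as trophic receptors (9 of 14), cytokine response (8 of 11) and mitochondrially encoded genes (6 of 7). Of 36 tested potassium channel genes, 15 were higher and 2 lower (12 to 14 higher and 0 to 2 lower with any 1 library left out), with a median log2 fold change of 1.58. *Kcnj6*, an inward rectifier opened by G proteins, went from 4.96 and 1.43 to 428 and 479 normalised counts, a log2 fold change of 7.08 (SE 0.56, edgeR adjusted p = 1.53e-05). *Kcnh1* went from 16.8 ± 9.57 (mean and SD of the 2 libraries) to 340 and 473, *Kcnh5* from 1.24 and 4.30 to 95.2 and 100, and *Kcnip4*, which binds A-type channels, from 6.20 and 1.43 to 86.4 and 56.5. The 2 that fell were *Kcnd3*, an A-type channel (541 and 509 to 137 and 166, log2 fold change -1.76), and *Kcnn1*, a calcium-activated channel (79.4 and 57.3 to 1.76 and 5.88). Calcium channels had 3 of 16 higher (1 or 2 with any 1 library left out) and 0 lower. *Cacna1d*, the L-type channel pore, went from 52.1 and 48.7 to 782 and 721, a log2 fold change of 3.92 (SE 0.28, edgeR adjusted p = 7.45e-06), and *Cacna1a*, the P/Q-type pore that drives release at the neuromuscular junction, from 1114 and 1169 to 3281 and 2757. *Cacng2*, an AMPA receptor auxiliary subunit, went from 47.1 and 31.5 to 160 and 149. Among 9 sodium channel genes 1 was higher. The median ratio between the DIV7 libraries was 1.07 for potassium, 0.927 for calcium and 0.899 for sodium channels.

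Some receptors for transmitters rose. Of 23 tested glutamate receptor genes, 9 were higher and 1 lower (6 or 7 higher and 0 lower with any 1 library left out), with a median log2 fold change of 1.18. *Gria1*, an AMPA receptor subunit, went from 3.72 and 11.5 normalised counts to 1348 and 985, a log2 fold change of 7.30 (SE 0.50, edgeR adjusted p = 6.07e-06). *Grik1*, a kainate receptor subunit, went from 85.6 and 93.1 to 3174 and 3420 (log2 fold change 5.23, SE 0.44), and the metabotropic *Grm7* from 22.3 and 30.1 to 982 and 724. *Grm3* went from 6.20 and 0 to 82.8 and 83.6. The one that fell was *Grin2c*, an NMDA receptor subunit, from 102 and 94.6 to 1.76 and 0. Of 17 GABA and glycine receptor genes, 8 were higher (6 to 8 with any 1 library left out) and 1 lower, with a median of 1.58. *Gabra2* went from 4.96 and 1.43 to 231 and 324 and *Gabrb1* from 1.24 and 0 to 344 and 245. The glycine receptor subunits moved apart, since *Glra3* rose from no count while *Glra1*, the adult spinal subunit, fell from 113 and 119 to 5.29 and 7.06, a log2 fold change of -4.16 (SE 0.53, edgeR adjusted p = 3.04e-04).

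Synaptic and adhesion genes were described as presynaptic and postsynaptic lists. Of 32 presynaptic genes, 6 were higher and 2 lower (3 to 5 and 0 or 1 with any 1 library left out), and of 31 postsynaptic and adhesion genes, 10 were higher and 2 lower (5 to 7 and 0 or 1), with medians of 0.85 and 1.01. The presynaptic genes that rose included *Syt4* (234 and 234 to 2307 and 2981), *Syn2*, a synapsin (22.3 and 27.2 to 256 and 310), *Nrxn3*, a neurexin (296 and 325 to 2124 and 1773), and the active zone gene *Rims1* (203 and 284 to 1309 and 1087). The calcium sensors *Syt7* (599 and 492 to 148 and 132) and *Doc2b* (94.3 and 67.4 to 15.9 and 4.71) fell. *Thy1*, a surface protein of mature projection neurons, had 0 and 1.43 at DIV0 and 143 and 252 at DIV7 (ratio 313, 95% counting interval 55.8 to 12408, edgeR adjusted p = 9.16e-05). Its mean was 773 at DIV28, above both DIV7 libraries. *Spp1*, the secreted phosphoprotein osteopontin, had 1.24 and 0, then 166 and 139, and a mean of 5898 at DIV28. *Cntnap4* (8.74 ± 1.83 to 139 and 218) and *Lrrtm1* (11.2 and 4.30 to 88.1 and 81.2), both cell adhesion genes of synapses, also rose. The scaffolds *Dlg1* (606 and 317 to 176 and 144) and *Dlg3* (434 and 434 to 189 and 141) fell.

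**Figure D3:**
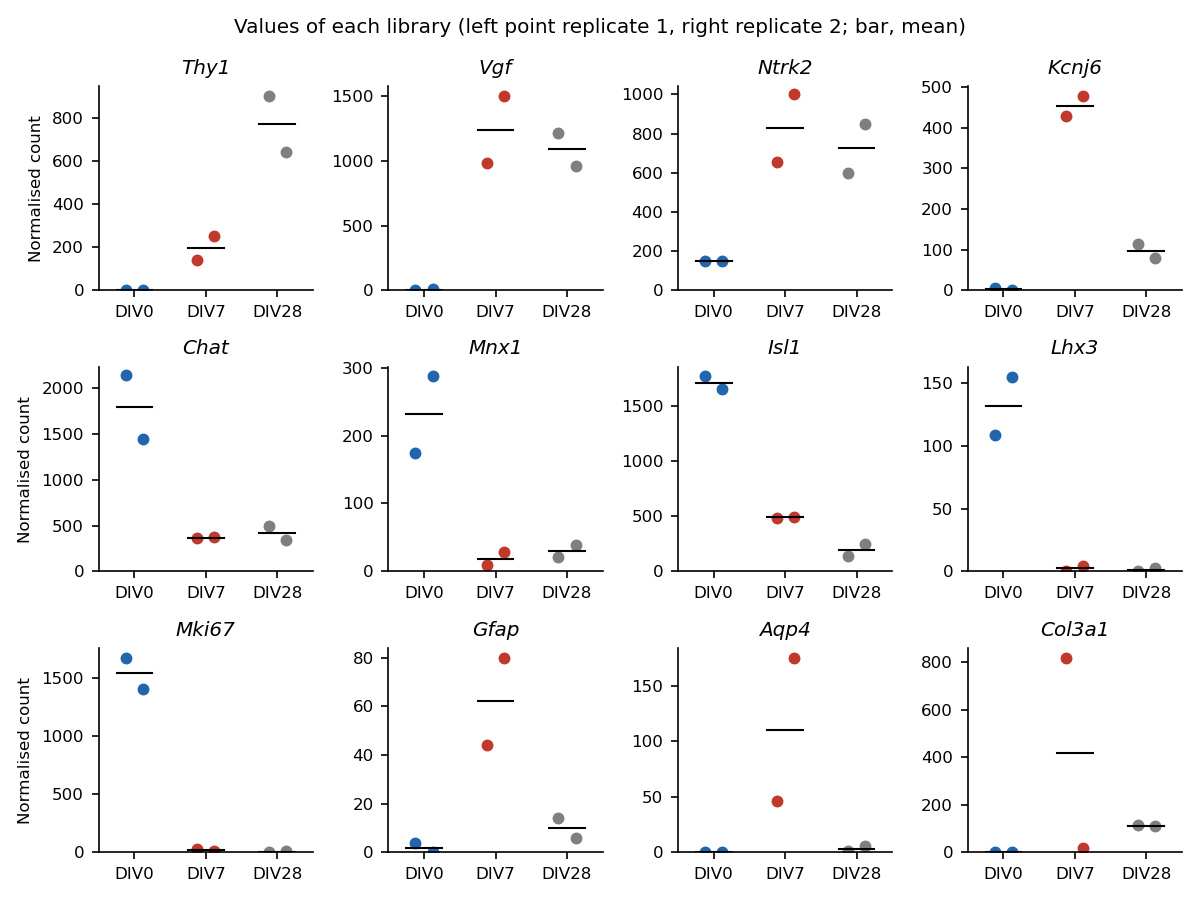
Normalised counts of 12 genes in the 2 libraries each at DIV0, DIV7 and DIV28 (points, replicate 1 left and replicate 2 right, with the mean as a bar, vertical axes from 0). *Vgf*, *Ntrk2* and *Kcnj6* were high in both DIV7 libraries, while *Aqp4* was higher in replicate 2 and *Col3a1* in replicate 1.

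Some genes of the neuronal cytoskeleton rose. Of 13 neurofilament and cytoskeleton genes, 4 were higher (1 to 3 with any 1 library left out) and 0 lower. *Prph*, the intermediate filament peripherin, went from 564 and 520 normalised counts to 4541 and 3946, a log2 fold change of 2.99 (SE 0.36, edgeR adjusted p = 1.97e-04). *Nefh*, the heavy neurofilament subunit, went from 40.9 and 24.4 to 513 and 954 and had a mean of 6447 at DIV28. *Sptbn4*, a spectrin of the axon initial segment (226 and 258 to 1216 and 673), and *Mapt*, which encodes tau (663 and 919 to 1604 and 2347), were the other members called. *Tubb3*, the neuronal tubulin, had 419 and 535 at DIV0 and 1156 and 3034 at DIV7 and did not pass the limit of p (edgeR adjusted p = 0.0137). In the axon growth list 2 of 22 were higher, *Tubb2a* (227 and 248 to 763 and 1736) and *Stmn3* (130 and 149 to 453 and 818), both higher in DIV7 replicate 2 than in replicate 1. *Dcx*, the doublecortin of migrating young neurons, fell from 5139 and 4961 to 1447 and 1662 (log2 fold change -1.67, SE 0.37). With any 1 library left out, 0 to 3 of the list were higher and 0 lower.

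Axon guidance genes went both ways. Of 34 tested, 4 were higher and 5 lower (4, and 0 to 2, with any 1 library left out), and the median was 0.12. *Slit2*, a repellent secreted by the floor plate and by motor neurons, fell from 27581 and 28361 normalised counts to 3678 and 3270 (log2 fold change -2.99, SE 0.48, edgeR adjusted p = 0.00117), and *Slit3* from 4684 and 5506 to 742 and 684. *Sema3d* (666 and 605 to 145 and 129) and the semaphorin receptor *Nrp2* (2150 and 2257 to 545 and 668) also fell. *Epha3*, an ephrin receptor, rose from 36.0 and 27.2 to 613 and 571, *Sema3e* from 1.24 and 2.87 to 266 and 178, *Unc5d* from 37.2 and 103 to 721 and 565, and *Ephb1* from 253 and 179 to 973 and 1443.

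Several transcription factors of motor neuron identity fell. Of 21 tested, 9 were lower and 2 higher, with a median log2 fold change of -2.20, and 14 were lower at an adjusted p under 0.05. With any 1 library left out, 4 to 7 were lower and 0 higher at the limits. *Isl1* went from 1776 and 1654 normalised counts to 483 and 499, a log2 fold change of -1.78 (SE 0.32, edgeR adjusted p = 0.00230). *Mnx1*, also called Hb9, went from 175 and 287 to 8.81 and 28.2, a log2 fold change of -3.55 (SE 0.63, edgeR adjusted p = 0.00213), and *Lhx3* from 109 and 155 to 0 and 4.71. The LIM factor *Lhx4* went from 429 and 562 to 37.0 and 33.0. *Esrrg* (347 and 413 to 52.9 and 31.8), *Onecut1* (780 and 929 to 145 and 219), *Nr2f1* (971 and 1162 to 280 and 204), *Nr2f2* (1311 and 1608 to 150 and 98.9) and *Mecom* were the others that fell. The 2 that rose were *Foxp1*, a factor of limb-innervating motor neurons (320 and 341 to 927 and 845), and *Etv4*, a factor induced by GDNF in motor pools (1.24 and 0 to 220 and 131). All 16 tested Hox genes had log2 fold changes below 0, with a median of -1.76, and 3 passed the limits (1 or 2 with any 1 library left out). Among them were *Hoxc5* (176 and 225 to 3.52 and 14.1) and *Hoxd3* (920 and 643 to 201 and 205). Nuclear factor I genes split, since *Nfia* fell from 651 and 757 to 115 and 147 (log2 fold change -2.40, SE 0.30) and *Nfix* rose from 4.96 and 5.73 to 67.0 and 117, while *Nfib* had 164 and 176, then 148 and 259 (edgeR adjusted p = 0.703). With any 1 library left out, 0 or 1 of these 4 genes was higher and 1 lower. In these libraries fewer nuclei of a class and less RNA per nucleus cannot be told apart.

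Cholinergic genes did not move as 1 group. *Chat*, the enzyme that makes acetylcholine and whose promoter drives the tag, fell from 2144 and 1444 normalised counts to 365 and 375 (log2 fold change -2.25, SE 0.41, edgeR adjusted p = 0.00261). *Slc10a4*, a vesicular transporter of cholinergic neurons, fell from 433 and 487 to 95.2 and 129, and the nicotinic receptor gene *Chrna3* from 118 and 34.4 to 0 and 0, at least 36.0-fold lower. *Slc18a3*, the vesicular acetylcholine transporter, had 1034 and 729, then 379 and 511 (log2 fold change -0.96, edgeR adjusted p = 0.186). Together 3 of 11 tested were lower and 1, *Prph*, was higher. With any 1 library left out, 0 or 1 were lower. Of the genes of other spinal neuron classes 2 of 4 tested were higher (1 or 2 with any 1 library left out), *Gad1*, the GABA synthetic enzyme (3.72 and 1.43 to 98.7 and 45.9), and *En1*, a factor of V1 interneurons (0 and 0 to 17.6 and 11.8). The list summed to 4.13 and 4.58 CPM at DIV0 and 55.1 and 46.6 CPM at DIV7, with a median log2 fold change of 4.03, or 3.11 with genes without counts at their bound.

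Genes of dividing cells were expressed at DIV0 and low at DIV7. The DIV7 cultures had been given an agent against dividing cells, and its part in this fall cannot be told apart from that of time. The 32 cell cycle genes summed to 752 and 612 CPM at DIV0 and to 108 and 99.5 CPM at DIV7. *Mki67*, the proliferation antigen, went from 1677 and 1407 normalised counts to 28.2 and 16.5, a log2 fold change of -6.12 (SE 0.77, edgeR adjusted p = 2.87e-04). *Top2a*, the topoisomerase of dividing cells, went from 342 and 206 to 12.3 and 17.7, *Cenpf* from 322 and 201 to 8.81 and 18.8, and *Cenpe* from 195 and 136 to 17.6 and 25.9. These 4 of 17 tested were lower (2 to 4 with any 1 library left out), 0 were higher, and the median log2 fold change was -2.02. Of 12 tested progenitor and Notch genes, 1 was lower, *Nkx6-1* (134 and 87.4 to 5.29 and 16.5), and 1 higher, *Vim*, an intermediate filament also abundant in glia (838 and 749 to 1639 and 3535). With any 1 library left out, 0 or 1 were lower and 0 or 1 higher, with 0 lower without DIV7 replicate 1 and 0 higher without DIV7 replicate 2. *Olig2*, the progenitor factor of motor neurons and oligodendrocytes, was under the limit for testing at 13.6 and 30.1, then 1.76 and 5.88. The fall of the cell cycle genes went with that of the motor neuron factors above, and its part in that result was not tested. The promoters of *Mki67* and *Top2a* are shown because their RNA fell while both still overlapped a peak in all 4 ATAC-seq libraries, DIV7 included. Bases are the 250 before the start site (RefSeq, GRCm38, minus strand, 5′ to 3′), and capitals mark TTTGAA, the core of the cell cycle homology region, and CCAAT, each on either strand.
Mki67 chr7:135716380-135716629: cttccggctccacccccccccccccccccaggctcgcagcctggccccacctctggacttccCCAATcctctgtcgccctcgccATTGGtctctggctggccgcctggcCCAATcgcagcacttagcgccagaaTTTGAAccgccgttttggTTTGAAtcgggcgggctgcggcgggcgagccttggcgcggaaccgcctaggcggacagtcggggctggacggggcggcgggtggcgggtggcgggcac
Top2a chr11:99024190-99024439: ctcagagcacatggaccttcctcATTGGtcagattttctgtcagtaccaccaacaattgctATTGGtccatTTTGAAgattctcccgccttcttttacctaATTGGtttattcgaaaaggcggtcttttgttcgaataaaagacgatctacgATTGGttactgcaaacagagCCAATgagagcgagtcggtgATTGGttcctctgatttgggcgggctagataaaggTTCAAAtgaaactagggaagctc
TTTGAA was found 2 times in each, and CCAAT 3 times before *Mki67* and 6 times before *Top2a*. Among 26 cell cycle genes with a promoter in the reference, 22 held CCAAT (84.6%) and 8 TTTGAA (30.8%), beside 37.5% and 18.3% of 27025 genes.

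Of 14 tested astrocyte genes 4 were higher at DIV7 and 0 lower, with a median log2 fold change of 3.97. At an adjusted p under 0.05 and 2-fold, 9 were higher and 0 lower. *Aqp4*, the water channel of astrocytes, had 0 and 0 normalised counts at DIV0, 45.8 in DIV7 replicate 1 and 175 in replicate 2, at least 55.4-fold higher but without passing the limit of p (edgeR adjusted p = 0.0127). *Gfap*, the astrocyte filament (ENSMUSG00000020932.14, chromosome 11 of mm10 from 102887336 to 102900912), had 3.72 and 0 at DIV0 and 44.1 and 80.0 at DIV7 and did not pass it either, and *S100b* had no count in any of the 4. Replicate 2 was the higher DIV7 library for both genes with counts. The 4 called were *Aldh1l1* (2.48 and 0 to 47.6 and 131), *Mlc1* (0 and 0 to 42.3 and 154), *Slc1a3*, a glutamate transporter (12.4 and 17.2 to 109 and 322), and the gap junction gene *Gja1* (6.20 and 4.30 to 111 and 63.5). Between the DIV7 libraries the median ratio of replicate 2 over replicate 1 was 2.24, and 9 of the 14 genes had a ratio of at least 2. The count of astrocyte genes called higher was 1 without DIV7 replicate 2 and 4 without replicate 1. *Slc1a2*, the gene with the most counts of the list in all 4 libraries, had 332 and 446, then 331 and 461.

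Many matrix genes were instead highest in DIV7 replicate 1. *Col3a1*, the fibrillar collagen that was singled out after its values were seen, had 0 and 0 at DIV0, 818 in DIV7 replicate 1 and 17.7 in replicate 2, and *Col1a1* had 1.24 and 0, then 671 and 85.9. Neither passed the limit of p (edgeR adjusted p = 0.0338 and 0.0175). Of 10 tested matrix genes 5 were higher and 0 lower (3 or 4 with any 1 library left out), with a median log2 fold change of 5.70. With an adjusted p under 0.05 and 2-fold it was 9 higher and 0 lower. *Fn1*, fibronectin, went from 179 and 107 to 2998 and 1249. *Col5a2* (14.9 and 0 to 335 and 260), *Col6a3* (2.48 and 1.43 to 74.0 and 43.5) and *Tgfbi* (0 and 4.30 to 178 and 117) were closer between the DIV7 libraries. *Thbs1*, a thrombospondin that astrocytes also secrete, ran the other way, from 1.24 and 0 to 520 and 1214. The median ratio of replicate 2 over replicate 1 was 0.305 for this list, with 6 of 10 genes at 0.5 or less. Other glial and vascular lists were small. The endothelial list reached 25.9 and 18.3 CPM at DIV7, with 1 of 2 tested genes higher, *Flt1* (0 and 0 to 54.6 and 37.7). The pericyte and smooth muscle list reached 72.1 and 71.5 CPM, with 1 of 4 higher, *Acta2* (0 and 0 to 40.5 and 64.7), a count of 0 or 1 with any 1 library left out. None of the tested microglial (1), pluripotent (1) and floor plate (3) genes passed the limits in edgeR or DESeq2 (0, 1 and 1 at an unadjusted p under 0.05), and the oligodendrocyte list went from 58.3 and 59.5 to 24.4 and 15.0, with *Mbp* falling from 228 and 205 normalised counts to 3.52 and 7.06. That call was lost with any 1 library left out. *Mbp* was the member with the most counts at DIV0, and the other oligodendrocyte gene tested did not pass.

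**Figure D4:**
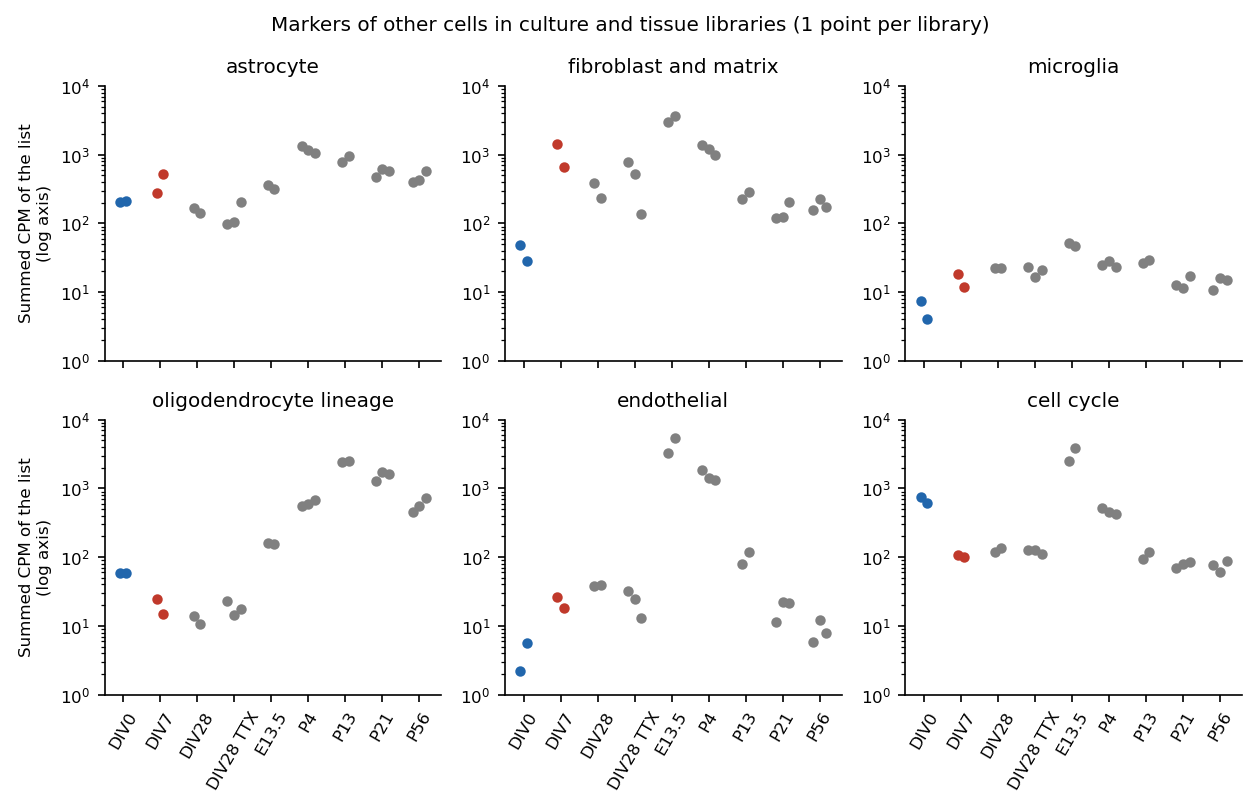
Summed CPM of 6 marker lists (logarithmic vertical axis, 1 point per library) at DIV0 (blue), DIV7 (red) and in the later cultures and tissue (grey). The later cultures are DIV28 without and with tetrodotoxin. At DIV7 the matrix sum was 1455 and 665 and the astrocyte sum 273 and 530, while tissue libraries from P4 to P56 held 399 to 1326 CPM of astrocyte genes.

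The chromatin libraries gave a second view of the same genes, in nuclei sorted by FACS and not pulled down. Of the 14 tested astrocyte genes, 6 had a promoter peak in both DIV7 ATAC-seq libraries and 6 in neither. *Gfap*, *Aqp4*, *Aldh1l1*, *Mlc1*, *Acsbg1* and *Hepacam* were the 6 in neither, and all 6 also lacked one at DIV0. Of 10 matrix genes, 6 had a peak in neither, *Col1a1*, *Col1a2*, *Col3a1*, *Col5a2*, *Col6a3* and *Fbln2*. Both lists stood below all tested genes, of which 81.4% had a promoter peak in both DIV7 libraries and 15.7% in neither. The neuronal lists varied. A peak in both was found for 13 of 14 trophic receptors, 32 of 36 potassium channels and 31 of 32 presynaptic genes. It was found for 25 of 31 postsynaptic and adhesion genes, 18 of 23 glutamate receptors and 13 of 17 GABA and glycine receptors. Hox genes (10 of 16) and protocadherin genes (4 of 16) stood lower. In both DIV0 libraries a peak was found for 14 trophic receptors, 35 potassium channels and 32 presynaptic genes. It was found there for 25 postsynaptic and adhesion genes, 21 glutamate receptors and 14 GABA and glycine receptors. None of these numbers was larger at DIV7. RNA without a peak also occurred in neuronal genes, since *Lhx3*, *Gabrb1* and *Spp1* had no promoter peak in any of the 4 libraries. No peak within 500 bp therefore does not mark RNA of other cells by itself. The 250 bases before the *Gfap* start site (RefSeq, GRCm38, minus strand, 5′ to 3′) are shown as the counterpart of *Socs3*, since both genes are known STAT3 targets and this one overlapped a peak in none of the 4 libraries.
Gfap chr11:102897201-102897450: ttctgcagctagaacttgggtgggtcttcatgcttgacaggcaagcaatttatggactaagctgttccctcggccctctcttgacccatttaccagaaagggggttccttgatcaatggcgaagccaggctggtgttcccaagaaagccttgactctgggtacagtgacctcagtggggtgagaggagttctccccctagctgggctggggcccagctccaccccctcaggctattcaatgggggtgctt
There is no capital in it because TTCNNNGAA was not found in this window. As for *Socs3*, the window before the RefSeq start lies inside the GENCODE span of the gene. Bases further upstream were not searched, so a site there is not excluded.

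**Figure D5:**
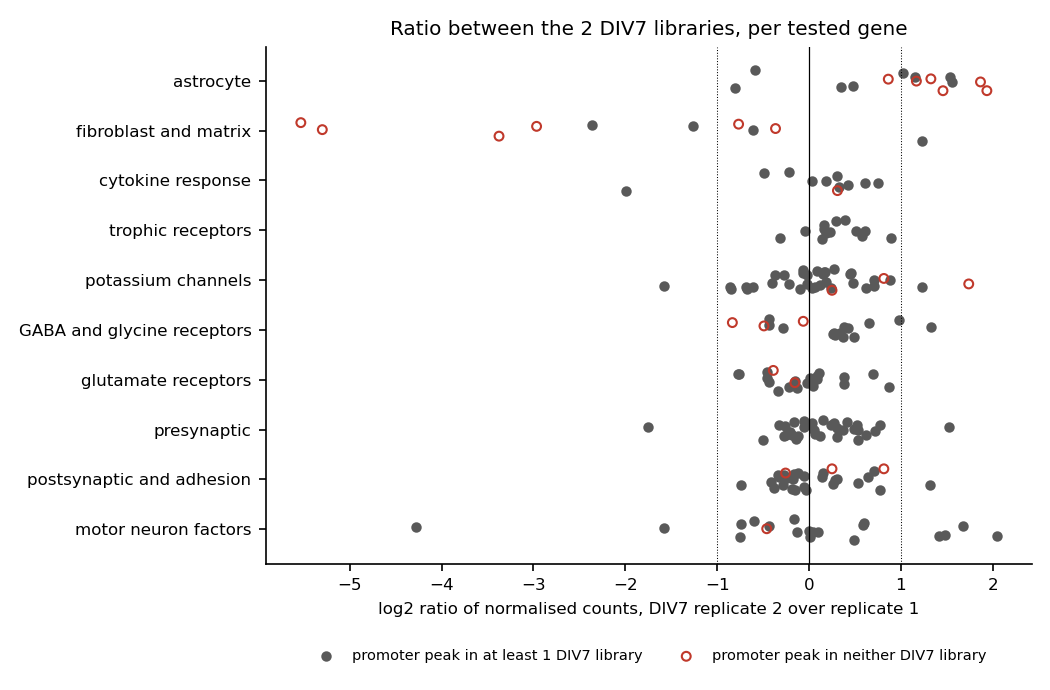
Log2 ratio of normalised counts in DIV7 replicate 2 over DIV7 replicate 1 for each tested gene of 10 lists with counts in both libraries, filled where the promoter had a peak in at least 1 DIV7 ATAC-seq library and open red where it had none (dotted lines at a ratio of 0.5 and 2, vertical position within a list is random). Astrocyte genes lie to the right and matrix genes to the left, many of them open, while channel, receptor and synaptic genes lie around 0.

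Over all genes that rose, most were close between the DIV7 libraries. Of the 1073, 62 had at least 2 times the normalised count in DIV7 replicate 2 (5.78%, beside 6.83% of all tested genes), 57 had at most 0.5 times (5.31%, beside 4.89%), and 954 lay between. With a limit of 1.5 in place of 2, 168 lay on the side of replicate 2. The genes that rose thus departed from a ratio of 1 about as often as all tested genes. A promoter peak was found in both DIV7 libraries for 783 of them (73.0%), in 1 for 73 and in neither for 217 (20.2%, beside 15.7% of all tested genes). A new promoter peak, absent from both DIV0 libraries and present in both at DIV7, was found for 32 of the higher genes (2.98%) and 0.431% of all tested genes. The reverse, a peak in both DIV0 libraries and in neither at DIV7, was found for 19 of 367 lower genes (5.18%) and for 1.19% of all. *Th*, *Sst*, *Slc18a2*, *Slc16a3* and *G630064G18Rik* lost their promoter peaks in this way, and *Pnoc*, *Serpina3n* and *Tm4sf1* gained one.

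The genes that rose were also looked up in purified nuclei of tissue, where no cultured glia were present. Of the 1073 higher genes, 944 (88.0%) reached 5 CPM in every library of P4, P13, P21 or P56 motor neuron nuclei, beside 91.8% of all tested genes, a share near that background. This measure cannot set astrocyte RNA apart, because all 14 tested astrocyte genes passed it and the 11 tissue libraries held 399 to 1326 CPM of the list. The same limit holds for other cells, since 7 of 10 tested matrix genes passed it. These libraries also held up to 1849 CPM of endothelial, 1143 of pericyte and 2476 of oligodendrocyte genes. Presence in tissue therefore does not place a gene in motor neurons. Present in tissue and below a ratio of 2 were 893 genes, a limit that also keeps genes higher in DIV7 replicate 1, such as *Osmr*. The highest in change at 100 or more normalised counts were *Gabrg3*, *Glra3*, *Cp*, *Gprin3*, *Serpina3n*, *Col8a1*, *Tm4sf1*, *Osmr*, *Cavin1* (185 and 153 from no count) and *Rspo3*, a Wnt agonist (164 and 167 from no count). Not present in tissue and at a ratio of at least 2 were 11 genes. Among the 10 highest were *Thbs1*, *Prelp* (0 and 0 to 54.6 and 165), *4932414N04Rik* (0 and 0 to 40.5 and 91.8), *Ccn3* (0 and 0 to 12.3 and 57.7), *Clca3a2* (0 and 0 to 5.29 and 22.4), *Igfbp3* (1.24 and 2.87 to 136 and 419), *Gpc4*, a glypican (2.48 and 4.30 to 169 and 560), *Fgf15* (0 and 2.87 to 63.4 and 177) and *Ephx1* (14.9 and 15.8 to 229 and 466). Whether these transcripts came from glia was not tested.

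The step in culture was set beside the step from E13.5 to P4 in tissue, which shares no library with it. The spread in tissue was estimated over 18 libraries, which include E10.5 whole cells. In tissue 23.8% of all tested genes were higher and 19.0% lower at P4, and among 12431 genes tested in both, 23.2% were higher and 17.8% lower than at E13.5. Of 991 genes that rose in culture, 496 (50.1%) were also higher at P4 and 103 (10.4%) lower, and these 496 were 17.2% of the 2886 genes higher at P4. Among genes that rose with a promoter peak in neither DIV7 library, 127 of 186 were higher at P4 (68.3%). With a peak in both it was 338 of 744 (45.4%). Of 356 genes that fell in culture, 70 (19.7%) were higher and 54 (15.2%) lower at P4, near the shares of all genes. Potassium channels (28 of 36 higher at P4), glutamate receptors (20 of 23) and GABA and glycine receptors (13 of 17) rose in tissue as well, with *Gria1* at a log2 fold change of 1.89, *Kcnj6* at 2.64 and *Gabrg3* at 4.37. *Thy1* rose in both, with 6.55 in tissue. Of the cytokine response list, 1 of 8 genes tested in tissue was higher at P4 and 1 lower, and the receptor *Lifr* had a log2 fold change of -0.07. *Glra1*, *Chat* and *Syt7* fell in culture and were higher at P4, with log2 fold changes of 4.44, 1.67 and 2.11 there. Matrix genes also ran apart, with 7 of 10 lower at P4 and 0 higher. The E13.5 libraries held 2959 and 3625 CPM of matrix, 3249 and 5463 of endothelial and 2526 and 3939 of cell cycle genes. At P4 these were 1007 to 1378, 1338 to 1849 and 431 to 518. Astrocyte, pericyte and oligodendrocyte sums were instead higher at P4. The study reports some contamination from blood vessels at both ages. The part of other cells in the tissue step was not tested. The difference between the steps was not tested, and 15 of 17 cell cycle genes were lower at P4 in tissue as well.

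Stress and housekeeping lists completed the comparison. Of 17 injury response genes 4 were higher (1 or 2 with any 1 library left out), *Sprr1a* (1.24 and 0 to 40.5 and 63.5), the cell death gene *Pmaip1* (1.24 and 2.87 to 51.1 and 49.4) and the peptide genes *Nts* and *Vip* at under 30 normalised counts. *Atf3*, the factor induced by axon injury, had 34.7 and 14.3, then 152 and 112, with a log2 fold change of 2.42 (SE 0.85) that did not pass (edgeR adjusted p = 0.0623), and a mean of 472 at DIV28. Of 12 immediate early genes 4 were higher (1 or 2 with any 1 library left out), among them *Egr1* (3.72 and 14.3 to 160 and 147) and *Fosl2* (21.1 and 25.8 to 266 and 181). *Fos* was under the limit for testing at 7.44 and 18.6, then 21.1 and 89.4. Of 9 MHC class I and interferon genes 3 were higher (1 or 2 with any 1 library left out). *B2m*, the invariant chain of MHC class I, rose from 4.96 and 4.30 to 104 and 81.2, *Irf9*, an interferon signalling factor, from 60.8 and 67.4 to 197 and 154, and *Ifit3* from 1.24 and 0 to 37.0 and 29.4. Mitochondrially encoded transcripts, which are made outside the nucleus, summed to 66.8 and 71.8 CPM at DIV0 and 354 and 541 at DIV7, and 6 of 7 tested were higher (4 or 5 with any 1 library left out) with a median log2 fold change of 2.47. The part of RNA from outside the nucleus in the other changes was not tested. Of 31 proteasome genes, 8 chaperonin genes and 17 cholesterol synthesis genes, 0 passed the limits in edgeR, with medians of 0.46, 0.42 and -0.70. At an unadjusted p under 0.05 there were 7, 2 and 7, and DESeq2 called 1 proteasome gene higher and 3 cholesterol synthesis genes lower. In the chromatin list 4 of 21 were lower and 2 higher (1 to 3, and 1, with any 1 library left out). *Ezh2*, the Polycomb methyltransferase, fell from 749 and 616 to 153 and 161, its partner *Suz12* from 408 and 328 to 132 and 78.8, *Chd7* from 2943 and 2448 to 587 and 547, and *Tet2* from 2797 and 2506 to 1059 and 754. *Chd5*, a neuronal remodeller, rose from 33.5 and 47.3 to 657 and 659, and *Hdac9* from 69.4 and 70.2 to 190 and 142. Of 16 protocadherin genes 1 was higher, and 0 with any 1 library left out. *Pcdha1* (74.4 and 73.1 to 204 and 192) shares its constant exons with the rest of the protocadherin cluster, so its count is uncertain.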

How the data were processed

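RNA-seq of purified nuclei was analysed in 2 libraries at DIV0 and 2 at DIV7. Reads had been mapped to mm10 by the authors using STAR, and RSEM gave the deposited expected counts of each gene, with no normalisation. They were rounded here. The labels give the groups. The 9 culture libraries with settled labels were fitted together with edgeR 4.0.16 in R 4.3.3 (quasi-likelihood test, TMM factors, 1 coefficient per group). They were the DIV0 and DIV7 libraries, the untreated DIV28 libraries and 3 DIV28 libraries grown with tetrodotoxin, and all shared 1 estimate of the spread. Genes were kept that reached 5 CPM (counts scaled to the library total) in all replicates of some group, and p-values were Benjamini-Hochberg adjusted. Limits were an unadjusted p under 0.001 and 2-fold, as in the study. Tissue used 18 in vivo libraries. Normalised counts are counts over median-of-ratios size factors (DESeq2 1.42.0). Bounds use a floor of 3 counts over the group, and ratios with 1 to 3 counts in a group carry exact 95% intervals; both cover counting error only.

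ATAC-seq peaks were called by the authors with MACS2, and the deposited −log10 p ranked them. The 50000 highest intervals of each library were set against GENCODE M21 start sites within 500 bp. RefSeq promoters came from GRCm38.

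The members and the 36 gene lists were chosen with earlier results of these data known. Named genes were, in each list, up to 4 called members per direction with the largest change at a mean of at least 50 normalised counts, 19 defining genes, the 10 highest and 10 lowest of all at 100 or more, and the 10 highest in each of 2 classes by presence in tissue and replicate ratio. Other genes are named where a count of 5 or fewer or a list is spelled out, and were chosen after their values were seen. On simulated data of 12992 genes for this comparison, the fit called 65 of 100 genes with a 4-fold change, 7 of 100 with a 2-fold change and 15 of 12792 with none. Alternatives were other scalings, filters, tests, sample sets, limits, a replicate block and leaving out each library. The list counts without a DIV7 library, the classes by ratio and the classes by promoter peak were chosen after seeing the data. Some genes that this rule names are not reported here.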

Additional observations from a re-analysis of the deposited data

Results flagged for a closer look

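The library titled as the third DIV0 replicate was in neither the DIV0 nor the DIV7 group, because of the study's sample list. An alternative fit of 10 libraries placed it with DIV28 and called 1078 genes higher and 362 lower at DIV7. The library held 17.3 CPM of *Gfap*, beside 0.729 and 0 CPM in the DIV0 libraries. It held 67.5 CPM of *Thy1*, beside 0 and 0.286 CPM. It also held 626 CPM of *Spp1* (0.243 and 0 at DIV0), 0.356 CPM of *Mki67* (328 and 281) and 0.119 CPM of *Lhx3* (21.4 and 30.9).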

How the results depend on the processing

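The counts of 1073 higher and 368 lower genes were 1862 and 767 with no filter on low counts, and 1825 and 971 at an adjusted p under 0.05. The fit of only the 4 libraries called 1531 higher and 957 lower, DESeq2 1418 and 672, and the likelihood ratio test 1514 and 694. Leaving out 1 library gave 563 to 778 higher and 119 to 149 lower, with fewer libraries in the fit. Same-numbered libraries did not deviate together (correlation of deviations 0.0268 over 12992 genes), and the fit used no pairing. With 2 libraries a group this correlation cannot exclude that same-numbered libraries share a differentiation. The fit with a replicate block called 1622 higher and 766 lower. With a ratio limit of 1.5, 168 of the higher genes passed it in place of 62. With the 20000 highest peaks, 524 in place of 798 of the higher genes had a promoter peak in the first DIV0 ATAC-seq library. That was 48.8% in place of 74.4%, beside 74.2% in place of 84.2% of all tested genes. In the first DIV7 library it was 52.7% in place of 75.8% of the higher genes, beside 72.5% in place of 82.6% of all tested genes. Of 132 named called genes, none changed direction in any alternative that tested it, and 132 of 132 stayed past the limits with median-of-ratios factors and with TMM factors from genes present in tissue, 126 with DESeq2, and 78 to 92 with 1 library left out. With 2 libraries a group and 2704682 to 4117435 counts in each, changes of 2-fold were rarely detectable.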
